A study of Mus musculus with 11 samples.

Results

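Interferon-induced and antigen presentation genes were examined in cell lines derived from ErbB2-driven mouse mammary tumors. Members were chosen by name. A protein-coding gene of the deposited table was a member when its symbol began as those of interferon-induced genes, interferon regulatory factors, Stat factors, guanylate-binding and immunity-related GTPases or histocompatibility (H2) genes do, or was one of a set of named antiviral and peptide-processing genes. This gave 62 members among the 4461 genes in the table, of which 4056 were protein-coding. In all, 6 cell lines were compared by RNA-Seq. The 4 lines KO_1922, KO_1925, KO_2768 and KO_4258 carried both conditional Cpt1a alleles (NIC/Cpt1a L/L), and WT_5257 and WT_8905 were wild-type for Cpt1a (NIC/Cpt1a +/+). Both genotypes carried the MMTV-NIC transgene, in which a mammary epithelial promoter drives activated ErbB2 together with Cre recombinase, so the control lines also carried Cre. Tumors were taken from female mice 8 weeks after they could be felt, and the dissociated cells were grown in medium with serum, EGF, hydrocortisone, insulin and bovine pituitary extract, without further treatment. The age of the mice was not given in the sources used here. Genotypes were taken from the genotype field and the line names, because the titles of the samples word the alleles the other way round. Each line had duplicate libraries, except KO_2768 with 1, and duplicates were summed so that the line was the replicate (n = 4 and n = 2).

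Every gene in the table had passed the authors' own comparison of these genotypes. The values of members between genotypes are therefore a description of genes selected on the same contrast, and no test of that contrast supports them. The 11 libraries held 15199378 to 25386785 reads, each NIC/Cpt1a L/L library more than each NIC/Cpt1a +/+ library, so depth and genotype cannot be told apart. Cpt1a and Erbb2 are not among the listed genes and were not analysed here. Of 14 epithelial markers 1 was listed (Elf5), and of 21 leukocyte markers also 1 (Csf1r), so the labelled mammary epithelium could not be checked beyond them. Elf5, a luminal progenitor factor, lay at 17.6 to 143 CPM (counts per 1000000 reads of the library, scaled by edgeR's TMM method) in the NIC/Cpt1a L/L lines and at 298 and 316 CPM in the NIC/Cpt1a +/+ lines. Csf1r, a macrophage receptor, stood at 312 CPM in KO_4258, 17.2 CPM in KO_1925 and at most 4.03 CPM in the others. Of 11 fibroblast and stromal markers 5 were listed (Dcn, Pdgfrb, Col1a2, Thy1 and Acta2), and all 5 were highest in KO_2768. There the proteoglycan gene Dcn reached 1368 CPM against at most 0.887 CPM in every other line. The other markers were not confined to KO_2768. Col1a2 stood at 5.70 CPM in KO_2768, 4.35 CPM in KO_1922 and 1.46 CPM in KO_1925, against 0 and 0.0624 CPM in the controls. Pdgfrb stood at 13.4, 2.14 and 0.783 CPM in these lines, against 0 and 0.0312 CPM. Of 7 endothelial markers only Eng was listed, at 0.726 to 2.66 CPM. In bulk RNA a change in the share of cells of a type and a change in RNA per cell cannot be told apart.

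Interferons are secreted proteins that warn cells of infection. They act through receptors on the cell surface, and many of their target genes carry an interferon-stimulated response element (ISRE) or a gamma-activated site (GAS) in front of the start. The targets include sensors of foreign or misplaced nucleic acid, proteins that block viral replication, GTPases that attack the membranes around intracellular pathogens, and the machinery that loads peptides onto major histocompatibility complex (MHC) class I molecules for display to CD8 T cells. By role the 62 members comprised 15 nucleic acid sensors, 16 antiviral effectors, 14 interferon-induced GTPases, 8 genes of class I presentation, 1 class II gene, 5 transcription factors and 3 genes whose names match but whose products bind Irf2 (Irf2bp1, Irf2bp2 and Irf2bpl). No gene of an interferon or interferon receptor, and none of B2m, Tap2, Psmb8, Nlrc5 or Eif2ak2, was among the members.

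The promoters of the members were searched for both motifs. RefSeq windows from 250 bases before to 50 bases after the start (GRCm38.p6) were matched for 48 of the 62 members. The ISRE core was searched as GAAA, any 2 bases, GAAA, and the GAS as TTC, any 3 bases, GAA, on both strands. The following stretches come from before the start, with the ISRE core or its complement in capitals, and show that the same core sits in front of genes of unlike roles.
Oas3 (chr5:120777700-120777759, minus strand): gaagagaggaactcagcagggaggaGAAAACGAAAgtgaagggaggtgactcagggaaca
Ifi205 (chr1:174031855-174031914, minus strand): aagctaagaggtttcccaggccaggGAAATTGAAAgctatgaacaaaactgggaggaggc
Ifi203 (chr1:173942493-173942552, minus strand): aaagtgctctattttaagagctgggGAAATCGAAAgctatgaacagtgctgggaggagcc
Isg15 (chr4:156200850-156200909, minus strand): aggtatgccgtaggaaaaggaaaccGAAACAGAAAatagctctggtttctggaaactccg
Bst2 (chr8:71537562-71537621, minus strand): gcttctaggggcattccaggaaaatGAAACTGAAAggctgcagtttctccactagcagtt
Irgm2 (chr11:58214888-58214947, plus strand): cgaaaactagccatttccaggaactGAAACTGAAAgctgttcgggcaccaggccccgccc
Igtp (chr11:58199497-58199555, plus strand): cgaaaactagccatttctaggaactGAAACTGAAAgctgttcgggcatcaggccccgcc
Gbp2 (chr3:142620579-142620638, plus strand): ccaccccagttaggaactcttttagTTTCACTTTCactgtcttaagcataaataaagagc
H2-T22 (chr17:36042899-36042958, minus strand): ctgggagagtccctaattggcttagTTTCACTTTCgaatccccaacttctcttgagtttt
H2-T23 (chr17:36032791-36032850, minus strand): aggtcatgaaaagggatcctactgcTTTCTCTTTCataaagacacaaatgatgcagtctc

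The ISRE core was present for 23 of the 48 matched members (47.9%), against 3.99% of the 27025 genes in the promoter table and 4.58% of the 3121 listed genes found there. By role it was found for 8 of 9 GTPases, 8 of 11 sensors, 5 of 13 effectors and 2 of 7 class I genes (H2-T22 and H2-T23, printed above), and for 0 of the 5 transcription factors. The GAS was found for 16 of 48 members (33.3%), against 9.55% of all genes. Among them were Irf1 and Irf8 and, of the GTPases, 6 of 9. In the Bst2 window a GAS spans bases -136 to -128 from the start and overlaps an ISRE core at -130 to -121, which in turn overlaps the printed core at -124 to -115. In all, 31 of 48 members (64.6%) held either motif, against 12.9% of all genes. Related neighbours can have separate windows of nearly the same sequence, as the Irgm2 and Igtp stretches above show, so members are not independent of each other. The ISRE core was found for 22 of the 42 matched members with a higher level in NIC/Cpt1a L/L cells (52.4%) and for 0 of the 5 with a lower one. Those 5 were transcription factors and Irf2bp genes. Irf1, Irf7 and Irf2bp2, of the same groups, had a higher level and also lacked the core, so role and direction cannot be told apart. A match describes these letters in this window and is not evidence that a factor binds there.

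**Figure D1:**
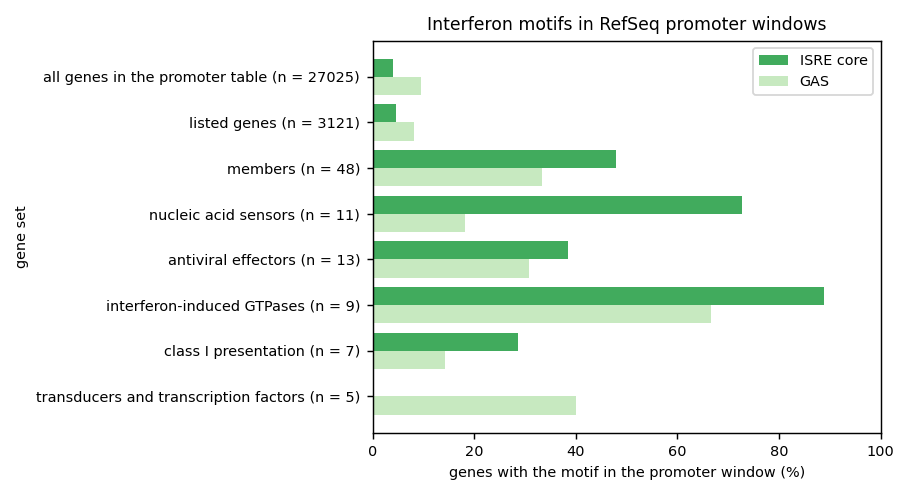
Share of genes (%) with an ISRE core (dark bars) or a GAS (light bars) in the RefSeq promoter window, by gene set, with the number of genes matched. The bar of the GTPases reaches 88.9% for the ISRE core, while the bar of all genes stays at 3.99%.

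Most members had more reads in NIC/Cpt1a L/L than in NIC/Cpt1a +/+ lines. Of the 61 members that passed edgeR's expression filter, 55 (90.2%) had a positive log2 fold change, compared with 58.6% of the 4268 listed genes tested. Of the 55, 36 were over 4-fold higher, some of them, such as Gbp4 and Ifi205, with 3 or fewer reads in the controls. The share of all tested listed genes over 4-fold was not computed, so the 36 cannot be set against it. In 31 members (50.8%) all 4 NIC/Cpt1a L/L lines lay above both NIC/Cpt1a +/+ lines, and the same held for 35.1% of all tested listed genes. In 6 members (9.84%) all 4 lines lay below both, against 38.2% of tested listed genes. The median member log2 fold change was 2.41, against 0.49 over all tested listed genes, and 2.32 when the members with 3 or fewer reads in the NIC/Cpt1a +/+ lines were placed at the lower bound of their fold. The count of 31 was 48 without KO_4258 and 47 without WT_8905, when the share of all tested listed genes above both controls, or the remaining one, was 45.9% and 46.9%. The median was 3.87 without WT_8905, 1.63 without KO_1922 and 1.67 without WT_5257. Without KO_2768, the line with the highest stromal markers, the counts were again 31 and 6, beside 39.2% of all tested listed genes above both controls. Leaving out a NIC/Cpt1a L/L line loosens the criterion, so the unchanged counts do not test the part of KO_2768.

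With lines as replicates, edgeR's quasi-likelihood test with Benjamini-Hochberg adjustment counting 20000 tests called 0 members raised and 0 lowered at 0.05, as it did for all tested listed genes (0%). The smallest adjusted p among members was 0.151, for Oas3. At an unadjusted p under 0.05 the same test gave 25 members raised (41%) and 6 lowered (9.84%), beside 21.5% and 29% of all tested listed genes. The 25 became 15 without KO_1922 and 11 without WT_5257, and the share of all tested listed genes raised became 12.9% and 6.84%. Adjusted over the listed genes, 4 members were raised (Oas3, Ifi204, Ifi202b and Isg20) and 1 was lowered (Tapbpl), beside 1.66% and 3.47% of all. DESeq2 on the line sums gave 20 and 4 members, beside 11.5% and 15%, and edgeR with every library as a sample gave 23 and 6, beside 24.8% and 38.6%. Since the table was selected on this contrast, no weight is given to any of these counts.

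**Figure D2:**
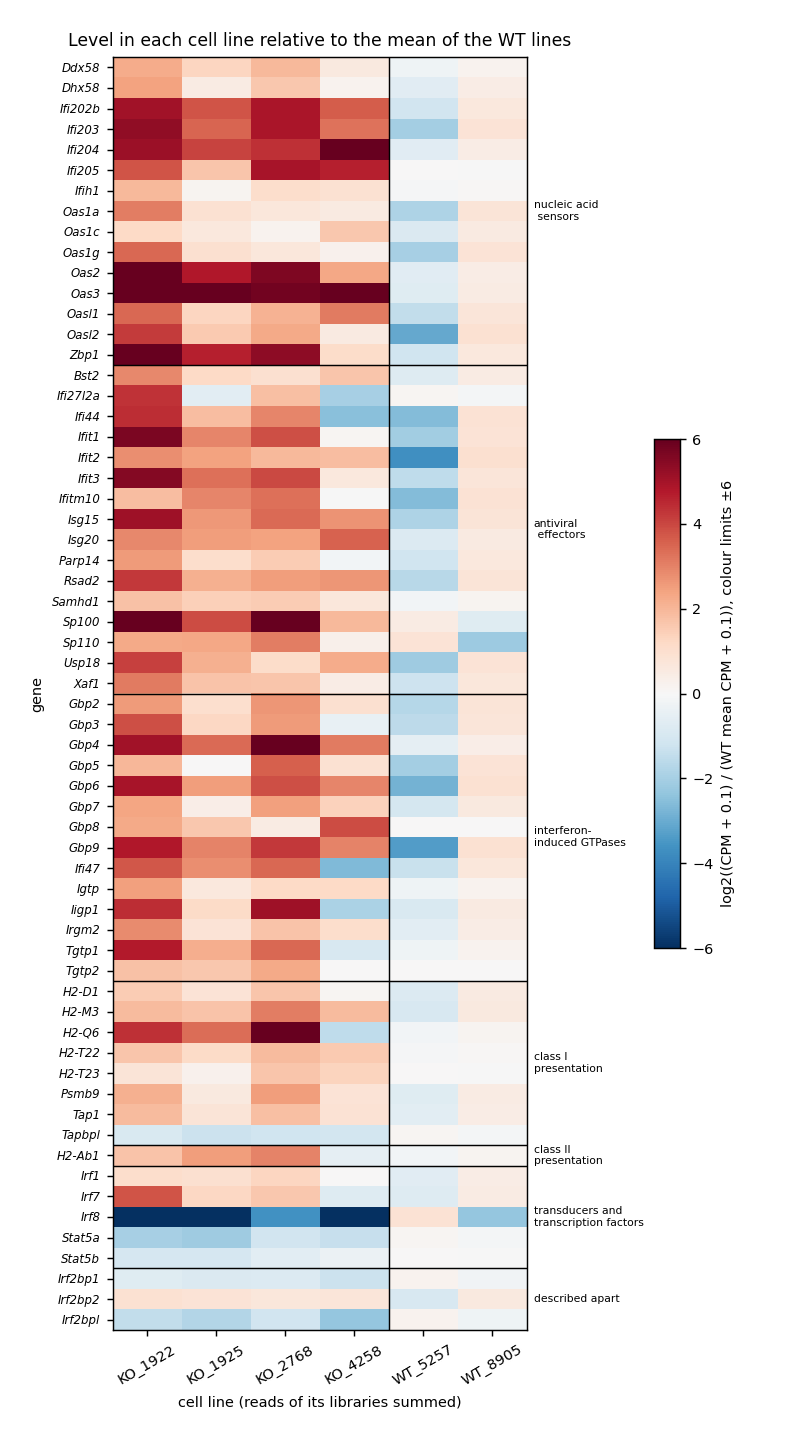
Level of each of the 62 members (rows, grouped by role) in the 6 lines (columns), as log2 of CPM plus 0.1 relative to the mean of both WT lines plus 0.1. Red is higher and blue lower, with colours ending at 6 and -6. Most rows are reddest in KO_1922 and palest among KO lines in KO_4258 or KO_1925, while Irf8, the Stat5 genes, Tapbpl, Irf2bp1 and Irf2bpl are blue in all 4 KO lines.

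All 15 nucleic acid sensors were higher in NIC/Cpt1a L/L cells on average, with log2 fold changes of 1.02 to 7.43 and a median of 2.79. In 10 of the 15 all NIC/Cpt1a L/L lines lay above both controls, beside 35.1% of all tested listed genes, which were selected on this contrast. Oas3, which makes the messenger 2-5A from double-stranded RNA and so turns on RNase L, had 238, 82.5, 66.6 and 109 CPM in KO_1922, KO_1925, KO_2768 and KO_4258 and 0.631 and 1.56 CPM in WT_5257 and WT_8905. Every NIC/Cpt1a L/L line thus exceeded both NIC/Cpt1a +/+ lines by a wide margin, with a log2 fold change of 6.82 ± 0.90 (SE) and, without any 1 line, of 6.21 to 7.62. Oas2, of the same family, had 61.1, 5.77, 9.96 and 0.943 CPM against 0.0316 and 0.187 CPM. Its order among the lines was that of many members, with KO_1922 far ahead and KO_4258 last. Oas1a, Oas1c and Oas1g overlapped between genotypes, WT_8905 reaching 26.9 CPM for Oas1a against 22.8 to 133 CPM in the NIC/Cpt1a L/L lines. Oas1a and Oas1g have 57.6% and 45.7% of their 50-base stretches in common with other genes, chiefly each other, so their counts are uncertain.

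The Ifi200 genes on chromosome 1, whose products bind DNA, were among the members with the largest separation. Ifi204 had 30.1, 14.4, 18.1 and 56.0 CPM in the order of lines above and 0.442 and 1.09 CPM in the controls, a log2 fold change of 5.26 ± 0.89 (SE). Here KO_4258 was the highest line, unlike in most members. Ifi202b lay at 29.1 to 79.5 CPM against 0.979 and 3.59 CPM, and Ifi203 at 8.99 to 37.5 CPM against 0.126 and 1.56 CPM. Ifi205 had 0.313 to 3.95 CPM, against 2 reads in all in the controls, which puts the ratio of pooled reads at 69.2 with a 95% counting interval of 19.0 to 573. The 4 genes lie between 173747293 and 174031755. Part of their 50-base stretches also occur in other genes for Ifi204 (20.02%), Ifi205 (18.6%) and Ifi203 (12.2%), and none do for Ifi202b. Zbp1, a sensor of left-handed nucleic acid that starts necroptosis, had 82.7, 23.5, 38.8 and 1.95 CPM against 0.316 and 1.37 CPM, so that KO_4258 barely passed WT_8905. Ddx58 (RIG-I), the sensor with the highest mean level per length of gene, had 185, 97.2, 153 and 58.8 CPM against 32.8 and 46.6 CPM. Ifih1 (MDA5) and Dhx58 (LGP2), the other receptors of this RNA-sensing family, had smaller differences, with log2 fold changes of 1.15 ± 0.51 and 1.46 ± 0.78 (SE).

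**Figure D3:**
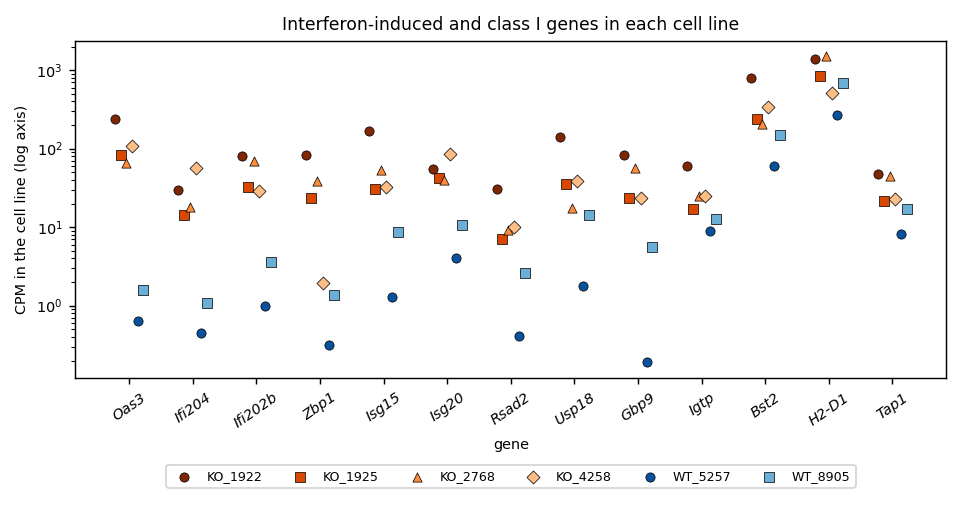
CPM on a log axis of 13 interferon-induced and class I members in each of the 6 lines, 1 point per line, with the reads of its libraries summed. Oas3, Ifi204 and Ifi202b show the widest gaps between the 4 KO lines (orange) and both WT lines (blue), and H2-D1 overlaps, with KO_4258 at 518 CPM and WT_8905 at 689 CPM.

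The 16 antiviral effectors also all had a positive fold change, with a median log2 of 2.77. In 8 of the 16 all NIC/Cpt1a L/L lines lay above both controls, beside 35.1% of all tested listed genes. Isg15, a ubiquitin-like protein attached to other proteins during an interferon response, had 169, 30.7, 53.4 and 32.8 CPM against 1.29 and 8.56 CPM, a log2 fold change of 3.86 ± 1.23 (SE). The NIC/Cpt1a L/L lines did not overlap the controls and differed among themselves by 5.51-fold. Usp18, which removes Isg15 from proteins and dampens receptor signalling, had 142, 35.9, 17.5 and 38.5 CPM against 1.77 and 14.5 CPM, KO_2768 being close to WT_8905. Rsad2 (viperin), which makes a chain-terminating nucleotide, had 30.3, 7.05, 9.11 and 10.1 CPM against 0.410 and 2.62 CPM. Isg20, an exonuclease for RNA, had 54.5, 42.4, 39.4 and 85.0 CPM against 4.07 and 10.5 CPM, with a log2 fold change of 2.92 ± 0.57 (SE). Bst2 (tetherin), which holds budding virus at the cell surface, had the highest level per length of the effectors, with 788, 240, 207 and 334 CPM against 61.0 and 150 CPM. Sp100, a nuclear body protein, had 11.8, 2.38, 33.8 and 0.529 CPM against 0.126 and 0 CPM, and its log2 fold change of 7.51 ± 2.52 (SE) rests on 4 reads in the controls. Of the Ifit genes on chromosome 19, Ifit1, which binds viral RNA caps, lay lower in KO_4258 than in WT_8905 (2.12 against 3.47 CPM). So did Ifit3 (0.782 against 0.843 CPM), while Ifit2 stood at 30.5 to 59.2 CPM against 0.568 and 16.2 CPM. Ifit3 has 51.2% of its stretches in common with Ifit3b.

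The interferon-induced GTPases had positive fold changes in all 13 tested of 14 (median log2 of 3.01). In 7 of the 13 all NIC/Cpt1a L/L lines lay above both controls, beside 35.1% of all tested listed genes. Such counts, here and above, ignore the floor of 3 reads, and the 7 include Gbp8 with 1 read in KO_2768. Gbp9, of the guanylate-binding proteins on chromosome 5, had 83.0, 23.5, 57.0 and 23.2 CPM against 0.189 and 5.56 CPM. Gbp6 had 6.52 to 35.7 CPM against 0.0631 and 2.09 CPM, but every 50-base stretch of its transcripts also occurs in another gene model. Gbp4 had 3 reads in the controls and 1.17 to 10.3 CPM in the NIC/Cpt1a L/L lines, with a ratio of pooled reads of 80.9 and a 95% counting interval of 27.6 to 394. Gbp8 had 0 reads in the controls and was at least 12.3-fold higher over the pooled NIC/Cpt1a L/L reads (against a floor of 3 reads over both lines), although KO_2768 held only 0.0388 CPM. Igtp, an immunity-related GTPase acting at vacuole membranes, had the highest level per length of the group, with 60.3, 17.0, 25.1 and 24.95 CPM against 8.97 and 12.8 CPM. Its neighbour Irgm2 had 77.1, 19.0, 36.1 and 22.7 CPM against 6.91 and 14.7 CPM. The pair has overlapping exons, and 11.8% of the stretches of Igtp also occur in Irgm2, so their counts are not independent. Tgtp2 did not pass the filter. It had 0 reads in both controls and in KO_4258 and at most 0.388 CPM elsewhere, and 86.6% of its stretches are shared, chiefly with Tgtp1.

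The members of class I presentation lie mostly in the MHC on chromosome 17, and 7 of 8 had a positive fold change, with a median log2 of 1.52 over the 8. H2-D1, a classical class I heavy chain that displays peptide at the cell surface, had the highest mean level per length of all members over the 6 lines. It had 1387, 848, 1513 and 518 CPM against 266 and 689 CPM, so KO_4258 lay under WT_8905, and the log2 fold change was 1.16 ± 0.60 (SE). Tap1, a subunit of the pump that brings peptides into the endoplasmic reticulum, had 47.1, 21.7, 44.2 and 22.8 CPM against 8.24 and 17.1 CPM. Psmb9, a subunit of the immunoproteasome that cuts these peptides, had 13.5, 4.62, 17.7 and 5.31 CPM against 1.77 and 4.25 CPM. For both the groups did not overlap, but KO_1925 and KO_4258 were close to WT_8905. H2-M3, which presents formylated bacterial peptides, had 8.57, 7.57, 19.4 and 8.58 CPM against 1.07 and 3.34 CPM. H2-T22, a nonclassical heavy chain, had 8.43 to 14.5 CPM against 3.54 and 3.97 CPM, a log2 fold change of 1.62 ± 0.39 (SE), with 34.5% of its stretches shared, chiefly with H2-T10, and 29.4% of its exonic bases overlapped by a gene on the opposite strand. H2-T23 (Qa-1), which is read by inhibitory receptors of natural killer cells, had 6.37 to 17.0 CPM against 5.37 and 5.28 CPM. In 6 of the 7 class I genes with a positive fold change KO_2768 was the highest line, all but Tap1. By comparison this line, with 1 library, was the highest for 30.9% of members and 28.1% of tested listed genes with a positive fold change. These class I genes lie on 1 chromosome and some share stretches, so they are not independent of each other. KO_2768 was also the line with the highest fibroblast and stromal markers given above, which KO_1922 and KO_1925 held at lower levels. Their part in these values was not tested. H2 genes differ between mouse strains, and reads of these FVB/N-derived cells were aligned to the reference strain, whose effect on H2 counts was not tested.

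Tapbpl (TAPBPR), a peptide editor for class I molecules, went the other way. It had 22.0, 17.0, 18.1 and 19.4 CPM against 44.9 and 37.6 CPM, a log2 fold change of -1.11 ± 0.21 (SE), with all 4 lines below both controls. Its lines lay closer together than those of any other class I member, within 1.29-fold. The 1 class II member, H2-Ab1, was near the floor, with 0.389, 0.731, 1.05 and 0 CPM against 3 reads in the controls, a ratio of 10.1 with a 95% counting interval of 3.33 to 50.3.

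Of the 5 transcription factors, 3 were below both controls in all 4 lines, beside 38.2% of all tested listed genes. The others overlapped. Irf8, which directs the development of dendritic cells and other myeloid cells, had 0.121, 0.0261, 3.41 and 0.0230 CPM against 78.6 and 8.80 CPM, a log2 fold change of -5.64 ± 2.11 (SE). KO_1925 and KO_4258 held less than the floor of 3 reads, and the controls themselves differed by 8.93-fold. Stat5a and Stat5b, neighbours on chromosome 11 that carry prolactin and growth hormone signals in the mammary gland, had log2 fold changes of -1.60 ± 0.32 and -0.73 ± 0.24 (SE). Stat5a had 23.0, 21.3, 42.3 and 35.6 CPM against 101 and 84.3 CPM, and Stat5b had 58.9, 58.1, 76.0 and 92.8 CPM against 118 and 118 CPM. Irf7, which amplifies type I interferon production, had 177, 30.8, 39.1 and 7.34 CPM against 7.42 and 18.1 CPM, so KO_4258 lay just below both controls. Irf1, a factor induced by interferon gamma, had 55.1, 52.2, 65.6 and 27.3 CPM against 16.6 and 36.8 CPM, with KO_4258 inside the range of the controls. Of the Irf2-binding proteins, Irf2bpl had 152, 125, 192 and 85.3 CPM against 497 and 354 CPM, and Irf2bp1 had 39.8, 36.4, 37.8 and 27.1 CPM against 76.5 and 57.3 CPM. Irf2bp2 lay slightly above, at 124 to 145 CPM against 39.8 and 116 CPM. A gene on the opposite strand overlaps 20.5% of the exonic bases of Irf2bp2. Without stated strand counting the reads of such pairs, here and for H2-T22, cannot be told apart.

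**Figure D4:**
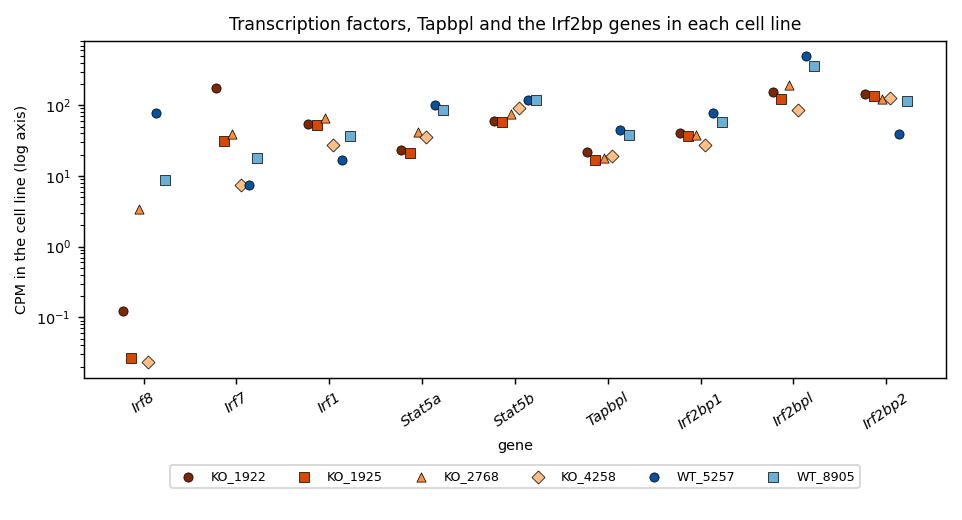
CPM on a log axis of the 5 transcription factors, Tapbpl and the Irf2bp genes in each line, 1 point per line. Irf8 spans from 0.0230 CPM in KO_4258 to 78.6 CPM in WT_5257, and Irf7 and Irf1 overlap between the KO lines (orange) and the WT lines (blue).

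The members differed widely among lines of 1 genotype. The table was not selected on this comparison itself, although a test between genotypes depends on the spread within them. With a term per line on the libraries, edgeR's quasi-likelihood test adjusted over all tested listed genes, together with a fold of at least 2, called 53 of 59 members (89.8%) different among the 4 NIC/Cpt1a L/L lines, against 44.9% of the 3940 listed genes tested. The 53 members were as low as 40 without KO_1922, but the share of all listed genes was not computed for that setting. Whether the members changed relative to it is not known. The other 6 (Ifit2, H2-T22, Tapbpl, Irf2bp1, Irf2bp2 and Stat5b) stayed within 2-fold. Between the NIC/Cpt1a +/+ lines the test called 41 of 59 members (69.5%), against 23.1% of all. These p-values measure only the spread between duplicate libraries of a line. Over the 53 members with the most reads, duplicates differed by a median of 1.08-fold and at most 4.71-fold. These are not the 53 members called above, some of which have fewer reads. KO_2768 had no duplicate and was assumed to vary like the others. The p-values say that the lines differ, not why, and nothing of the genotype.

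The order of the lines was shared by many members. KO_1922 was the highest NIC/Cpt1a L/L line for 34 of the 55 members with a positive fold change (61.8%), against 13.8% of the 2501 tested listed genes with a positive fold change, and the lowest for 0 of 55, against 15.9%. KO_4258 was the lowest for 32 (58.2%), against 35.1%, and the highest for only 4 (Isg20, Gbp8, Ifi204 and Oas1c), and KO_1925 was the highest for 0, against 23.7%. By role KO_1922 led 12 of 15 sensors and 12 of 16 effectors but 1 of 7 class I genes. These shares are a description over members that share their libraries. Of the 24 members with a positive fold change whose genotypes overlapped, KO_4258 failed to pass both controls in 21, and it was the only such line in 18. The same share among overlapping listed genes was not computed. Over all 55 members KO_4258 passed both controls in 34 (61.8%), against 80.1% of the 2501 tested listed genes with a positive fold change. KO_4258 was also the line with 312 CPM of Csf1r, whose part in these values was not tested.

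**Figure D5:**
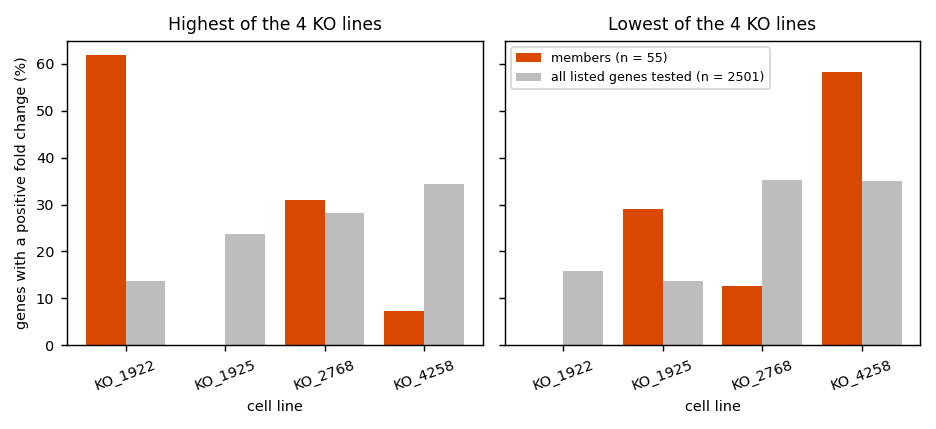
Share (%) of genes with a positive fold change for which each KO line was the highest (left) or the lowest (right) of the 4, for the 55 members (orange) and all 2501 listed genes tested (grey). KO_1922 is the highest line in 61.8% of the members and 13.8% of all genes, and KO_4258 the lowest in 58.2% and 35.1%.

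Over the 56 members that were above the floor of 3 reads in each NIC/Cpt1a L/L line, the highest line exceeded the lowest by a median of 4.19-fold. The 5 members with the largest fitted ranges were Irf8, H2-Q6, Tgtp1, Iigp1 and Ifi44. For Irf8, H2-Q6 and Tgtp1 a line at or under the floor makes the fold a lower bound, and the bounds of Irf8 (49.4-fold) and Tgtp1 lie below the measured folds of Ifi47 (110-fold) and Ifi27l2a (102-fold). Ifi44, an interferon-induced protein of the cytoplasm, had 135, 22.2, 47.3 and 0.989 CPM, a 136-fold range, against 0.915 and 11.3 CPM in the controls. Iigp1, which disrupts the vacuoles of intracellular parasites, had 15.3, 1.49, 24.3 and 0.0920 CPM, a 264-fold range, against 0.284 and 0.968 CPM. H2-Q6, a nonclassical class I gene with 32.0% of its stretches shared, had 5.998, 2.87, 28.7 and 0 CPM, so KO_2768 was at least 416-fold above KO_4258. Tgtp1 had 5.20, 0.783, 2.02 and 0 CPM, a range of at least 75.3-fold. In 4 of these 5 the lowest line was KO_4258 by a wide gap, and for Irf8 both KO_1925 and KO_4258 were at the floor.

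The controls were also ordered. WT_8905 exceeded WT_5257 in 49 of the 55 members with a positive fold change (89.1%), against 66.9% of all tested listed genes with a positive fold change. Of the 41 members that differed between them, 39 were higher in WT_8905, the exceptions being Sp110 and Irf8, whereas 77.6% of the 910 listed genes called were higher in WT_8905. The largest differences with both controls above the floor were those of Gbp9 (0.189 CPM in WT_5257 and 5.56 CPM in WT_8905, 29.3-fold) and Ifit2 (28.5-fold). For Isg15 the controls differed by 6.61-fold, more than the 5.51-fold among the NIC/Cpt1a L/L lines.

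Of 75 other genes of the interferon and antigen presentation pathway, outside the name rule, 28 were listed. On average 27 were higher in NIC/Cpt1a L/L cells and 1 lower (Erap1, which trims peptides for class I, at 38.6 to 59.5 CPM against 75.2 and 74.3 CPM), with a median log2 fold change of 2.04. By edgeR with lines as replicates 0 of 28 passed the adjusted threshold. At an unadjusted p under 0.05 the same test gave 10 raised and 1 lowered, beside 21.5% and 29% of all tested listed genes. In 14 of the 28 all 4 lines lay above both controls, as did 35.1% of all tested listed genes. These genes too were listed on this contrast, so no weight is given to the counts. The 6 with the largest changes were Aim2, Phf11d, Slfn5, Apol9b, Apol9a and Cxcl10. Aim2, a sensor of cytosolic DNA, had 138 CPM in KO_4258 and 0.157 to 3.60 CPM in the remaining 3 NIC/Cpt1a L/L lines, against 3 reads in the controls. Phf11d had 15.3, 1.57, 14.2 and 0.368 CPM against 1 read in the controls. Slfn5 had 0 reads in the controls and in KO_4258 and 0.496 to 1.72 CPM in the other lines. Apol9a and Apol9b, a pair of similar apolipoprotein genes, had 177 and 135 CPM in KO_1922 and 5.61 and 4.21 CPM in KO_4258, the latter below the 8.37 and 5.43 CPM of WT_8905. Cxcl10, a chemokine that draws T cells, had 5.998, 0.809, 2.48 and 0.920 CPM against 0 and 0.437 CPM. Socs1, a feedback inhibitor of interferon signalling, stood at 0.851 to 3.60 CPM against 0.158 and 0.343 CPM. Among the 27, KO_1922 was the highest line for 17 and KO_4258 the lowest for 16, shares of 63.0% and 59.3% beside the 61.8% and 58.2% of the members.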

How the data were processed

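RNA-Seq was performed on 11 libraries of 6 cell lines. The authors aligned reads to the mouse genome GRCm38/mm10 with STAR and counted them per gene with HTSeq. Whether counting used strand is not given in the sources used here. The submitters' processing notes also name Trimmomatic, edgeR and limma. The deposited table holds read counts, a normalized signal (counts that the authors divided by a size factor of each library), and FPKM values, for which the authors also used gene length and library total. Its columns with the authors' own genotype comparison (log2 fold changes, raw and adjusted p) were not used.

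Library totals were recovered from counts, lengths and FPKM, since listed genes carry 33.3% to 34.6% of reads. Intervals and the floor of 3 reads (0.118 to 0.197 CPM per library) cover counting error only. Duplicates were summed by line, filterByExpr left 4268 genes for line sums and 3940 for libraries, and TMM used the listed genes. Levels per length were TMM-scaled CPM divided by gene length. Analysis used R 4.3.3, edgeR 4.0.16, DESeq2 1.42.0, Python 3.11.15 and matplotlib 3.10.9. The edgeR tests were run on simulated counts with a fixed spread that was not estimated from these lines. That check gives no power or error rate for the tests here. Benjamini-Hochberg adjustment counted 20000 tests, a round number assumed to stand for all genes. It gives upper bounds only if no more than 20000 genes were tested. Labels do not say that duplicates came from separate cultures. Duplicate numbers did not pair samples. Shared 50-base stretches were counted in GENCODE M21 transcripts, and RefSeq promoter windows were searched for both motifs.

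The members, role groups and other lists were chosen with earlier results of these data known. The named genes were, in each role group, up to 4 with the largest change among those whose lines did not overlap, the highest per length and those against their group, then all Stat and Irf members, a few core genes, and the 5 with the largest range among NIC/Cpt1a L/L lines. Further genes, such as Ifih1, Dhx58, Irgm2, the Ifit genes, Socs1 and the other Oas and Ifi200 genes, were named after their values were seen. The 4 name matches that are not protein-coding were kept apart. Alternatives covered the sample unit, the tool, scaling, filter, lines left out, a replicate block and the promoter window. The authors' size factors and the restriction to members with few shared stretches were chosen after the data were seen.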

Additional observations from a re-analysis of the deposited data

Results flagged for a closer look

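In 9 members 1 NIC/Cpt1a L/L line stood apart from the other 3 by Dixon's ratio at the 95% level, taken on CPM without logarithms. Chance flags about 1 in 20 groups only where values are normally distributed. CPM that range many-fold among lines need not be, so the chance rate here is not known. KO_1922 stood above in 7 of them. These were Oas1a (133 CPM against 22.8 to 29.6 CPM in the other 3 lines), Oas1g (56.7 against 6.23 to 10.2 CPM), Rsad2 (30.3 against 7.05 to 10.1 CPM), Oas2 (61.1 against 0.943 to 9.96 CPM), Ifi27l2a (35.3 against 0.345 to 5.97 CPM), Isg15 (169 against 30.7 to 53.4 CPM) and Usp18 (142 against 17.5 to 38.5 CPM). KO_2768 stood above for H2-M3 (19.4 against 7.57 to 8.58 CPM) and for Irf8 (3.41 against 0.0230 to 0.121 CPM). The members share their libraries, so these are not 9 separate events.

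Of the 4 genes whose names match but that are not annotated as protein-coding (Mx2, Oas1b, H2-K2 and H2-T10), only H2-T10 had all NIC/Cpt1a L/L lines above both controls, with a mean of 33.4 CPM and a range of 22.3 to 40.5 CPM, against 11.02 and 15.9 CPM. Its transcripts share stretches with those of H2-T22.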

How the results depend on the processing

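By line, 0 members were raised and 0 lowered under every scaling, without the expression filter, with the second library of each line only, and with any 1 line left out (range 0 to 0 for both). With every library a separate sample the counts were 23 and 6, and with the duplicate number as a replicate block 19 and 6. The duplicate numbers did not pair the samples, since the correlation of duplicate differences between lines lay between -0.05 and 0.07 over 10 pairs of lines. DESeq2 on line sums gave 20 and 4, and adjustment over the listed genes 4 and 1. Leaving out lines, 29 to 48 members lay above and 6 to 6 below both controls, the median log2 fold change lay between 1.63 and 3.87, and 40 to 49 members differed among NIC/Cpt1a L/L lines. With the block 52 differed among NIC/Cpt1a L/L lines and 41 between the controls. For these alternative comparisons among lines of 1 genotype the shares of all listed genes were not computed. No member changed direction under any alternative run. Median-of-ratios factors moved the median over all tested listed genes from 0.49 to 0.37 and the authors' size factors to 0.59, while the count of members at an unadjusted p under 0.05 was 25 raised and 6 lowered under both. Over all tested listed genes that split was 917 to 1237, and 1122 to 920 with the authors' size factors and 762 to 1517 with median-of-ratios factors. Over the 44 tested members with at most 10% of stretches shared, 23 lay above and 5 below both controls, with a median of 2.42. With the promoter window beginning 200 bases before the start, 28 members held a motif instead of 31. Depth limits Gbp8, Tgtp2, H2-Ab1, Gbp4, Ifi205 and Sp100, whose controls held 0 to 4 reads.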
